A study of Arabidopsis thaliana with 72 samples.

Results

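AT5G64120 and AT5G39580 are a pair of Arabidopsis genes for class III peroxidases, named peroxidase 71 (PRX71) and peroxidase 62 (PRX62). They are the 2 members described here, out of 22810 probe sets on the ATH1 array and each is read by 1 probe set. They were picked by name because their signals were far higher in seedlings given nicotinamide than in untreated seedlings, so that difference is given below as a description and carries no test. RNA came from above-ground parts of seedlings grown for 11 days in 12 h of light and 12 h of dark at 19 °C and then kept in continuous light. Sampling covered 3 conditions: untreated wild type of the accession C24, C24 wild type treated with nicotinamide, and untreated seedlings of the mutant toc1-1, which carries a chemically induced mutation in At5g61380. The dose of nicotinamide and the accession of toc1-1 are not given in the labels. Per condition there were 24 arrays, made up of replicate courses 1 and 2 with 12 times each, every 4 h from 49 to 93 h. The labels do not say whether the replicates were separate batches of seedlings, so the spread behind a p-value may be technical.

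Class III peroxidases are haem enzymes secreted into the cell wall. They use hydrogen peroxide to oxidise phenolic compounds, which cross-links and stiffens the wall and helps build lignin, and they can also release reactive oxygen during defence. PRX71 has been linked to wall stiffening and restrained cell expansion, and PRX62 to root hair growth. Nicotinamide inhibits ADP-ribosyl cyclase and other enzymes that consume NAD, and it is known to abolish the daily oscillation of free calcium in the cytosol. TOC1 is a component of the circadian clock, and toc1-1 plants run with a short period. By its title the study looked for clock-driven transcripts that share their regulation with free calcium.

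Values below are signals in array units, which the authors scaled so that the trimmed mean of each array is 100, and differences are on the log2(signal + 16) scale unless a sentence says otherwise. In bulk RNA, fewer cells that express a gene and less RNA per cell cannot be told apart. Signal medians over all probe sets of an array ran from 32.6 to 38.1 in untreated, from 18.9 to 31.1 in nicotinamide and from 33.6 to 37.3 in toc1-1 arrays. The lowest correlation between replicates of a time was 0.970 in untreated, 0.919 in nicotinamide and 0.962 in toc1-1 seedlings. Labels differ between time courses in more than treatment. Untreated replicate 1 is labelled with growth stage 1.03 and the other 5 courses with 1.04. Replicate 1 of both C24 conditions closes with a note of 12 h days and nights and the other 4 courses with one of constant light, and toc1-1 plates held 150 to 200 seeds against 70 to 100. The effects of these differences were not tested. No probe set is named for the gene mutated in toc1-1, and that check of the label was not made here.

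One array stood apart for both genes, and the level and 24 h rhythm in toc1-1 are given with and without it. In toc1-1 at 77 h, the replicate 1 array read 1847 for PRX71 against 377 in replicate 2, a ratio of 4.89. The same array read 184 for PRX62 against 38.7 in replicate 2, a ratio of 4.76. Of the 82 other probe sets at least 4-fold higher under nicotinamide than in both other conditions, 29 (35.4%) had their highest toc1-1 signal on that array. Of the probe sets at least 4-fold lower, also 82, only 3 had their lowest toc1-1 signal there. A position along the 82 raised probe sets was set to 0 at the mean of untreated arrays (for toc1-1 arrays, of the other toc1-1 arrays) and to 1 at the nicotinamide mean. That array lay at 0.17, the highest toc1-1 value, where nicotinamide arrays ran from 0.58 to 1.24 and untreated ones from -0.18 to 0.13. That array also gave the lowest replicate correlation in toc1-1.

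PRX71 was a moderately bright transcript in untreated seedlings and a very bright one under nicotinamide. Its signal in untreated seedlings was 53.4 at the lowest, 249 at the median and 424 at the highest (251 ± 96.7, SD, n = 24). Under nicotinamide the corresponding signals were 1522, 3356 and 5874 (3371 ± 1043, SD, n = 24). Every nicotinamide array was above every untreated array. In toc1-1 the signals were 184, 365 and 1847 (427 ± 319, SD, n = 24), and without the 77 h array the highest was 568 (365 ± 105, SD, n = 23). Only 1 nicotinamide array, the one of 49 h replicate 1, lay below that 77 h toc1-1 array, and none lay at or below the other 23 toc1-1 arrays.

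PRX62 was dim in untreated seedlings and well measured under nicotinamide. Untreated signals were 5.85 at the lowest, 20.8 at the median and 44.8 at the highest (22.4 ± 9.87, SD, n = 24). Under nicotinamide they were 69.0, 377 and 738 (356 ± 183, SD, n = 24). Again no nicotinamide array reached down to the untreated range. In toc1-1 they were 10.7, 30.8 and 184 (38.1 ± 33.4, SD, n = 24), and without the 77 h array the highest was 58.9 (31.8 ± 12.2, SD, n = 23). There were 5 nicotinamide arrays below the 77 h toc1-1 array and none at or below any other toc1-1 array.

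**Figure D1:**
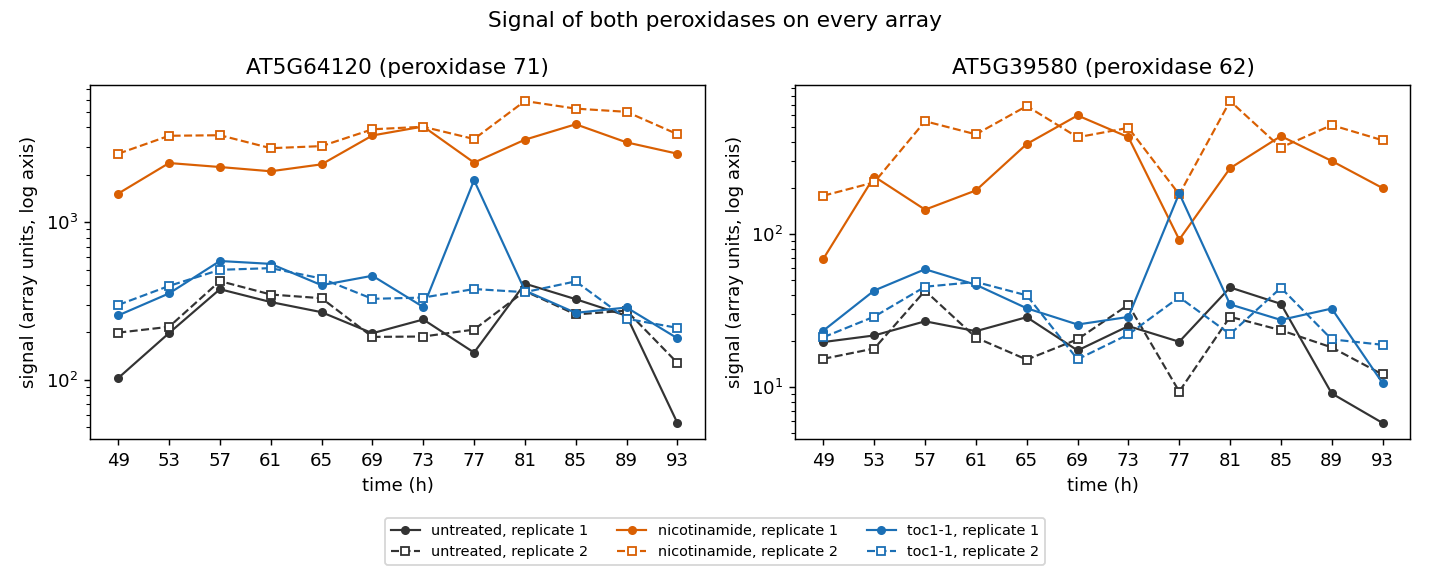
Signal of each peroxidase (array units, log axis) against time (h) on all 72 arrays; lines join the 12 arrays of a replicate time course. All 24 nicotinamide points lie above all 24 untreated points in both panels, and the toc1-1 replicate 1 array of 77 h stands out at 1847 for PRX71 and 184 for PRX62.

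The difference between nicotinamide and untreated seedlings, averaged over the 12 times, was 3.71 ± 0.11 for PRX71 and 3.12 ± 0.13 for PRX62 (SE of the limma fit, 24 arrays a condition). As ratios of mean signals these were 13.4 and 15.9, and the log2 value of PRX62 is the smaller because the added 16 units weigh on its low untreated signals. Among 13647 tested probe sets the differences ranked 2 and 12 from the top, and among the 7282 with a single named gene they ranked 1 and 6. By comparison 30.9% of tested probe sets were called higher under nicotinamide, 48.4% lower, and in 2.89% all nicotinamide arrays lay above all untreated ones. Since the genes were chosen on this contrast, nothing is read from their place in it. With time courses as a random block the SE of the differences from untreated were 0.18 for PRX71 and 0.21 for PRX62.

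The size of the difference varied over the time course. For PRX71 the ratio of signal means was lowest at 57 h (7.26) and highest at 93 h (34.9), which on the log2 scale ran from 2.77 to 4.98. The 57 h value falls at the untreated maximum, 400.1, and the 93 h value at the lowest untreated mean, 90.8. For PRX62 the ratio was lowest at 49 h (7.04) and highest at 93 h (33.9), where the untreated mean was 8.98. The lowest PRX62 log2 differences, 1.94 at 49 h and 2.28 at 77 h, fell at the times when its nicotinamide signal was lowest.

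**Figure D2:**
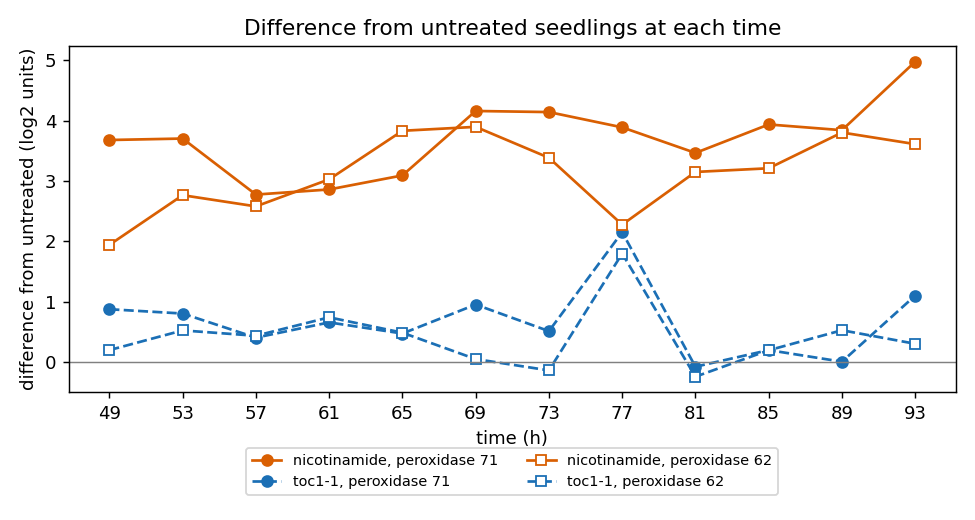
Mean log2(signal + 16) minus that of untreated seedlings (log2 units) at each of the 12 times (h) for nicotinamide and toc1-1, with 2 arrays per condition behind each point. Nicotinamide points run from 2.77 to 4.98 for PRX71 and from 1.94 to 3.90 for PRX62, while toc1-1 points are lowest at 81 h (-0.08 and -0.25) and reach 2.15 and 1.80 at 77 h.

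Both replicate courses showed the difference at all 12 times, which follows from every nicotinamide array lying above every untreated one. Within replicate 1 it averaged 3.57 for PRX71 and 2.75 for PRX62, and within replicate 2 it averaged 3.85 and 3.49. Replicate 2 of nicotinamide was the brighter course, for PRX71 at 11 of 12 times (mean signal 3906 against 2836) and for PRX62 at 9 of 12 times (434 against 279). In untreated seedlings replicate 2 was the higher at 8 of 12 times for PRX71 (means of 241 and 261) and at 5 of 12 for PRX62 (23.1 and 21.6).

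Nicotinamide arrays that were high for one gene tended to be high for the other. The lowest nicotinamide signal of both genes was on the 49 h replicate 1 array and the highest on the 81 h replicate 2 array. Across the 24 nicotinamide arrays their log2 levels correlated at a Pearson r of 0.74 (Spearman rho 0.68), and without the 2 arrays farthest from the PRX71 median at 0.60. Across arrays of untreated seedlings r was 0.64 (rho 0.57, n = 24), and in toc1-1 it was 0.92 (rho 0.83, n = 24) or 0.82 without the 77 h array (n = 23). These points share an array, a time and a replicate course, so the correlations are descriptions. The position of a nicotinamide array along the 82 other strongly raised probe sets followed both genes, with an r of 0.90 for PRX71 and 0.79 for PRX62 (n = 24). That position was lowest, at 0.58, on the same 49 h replicate 1 array.

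**Figure D3:**
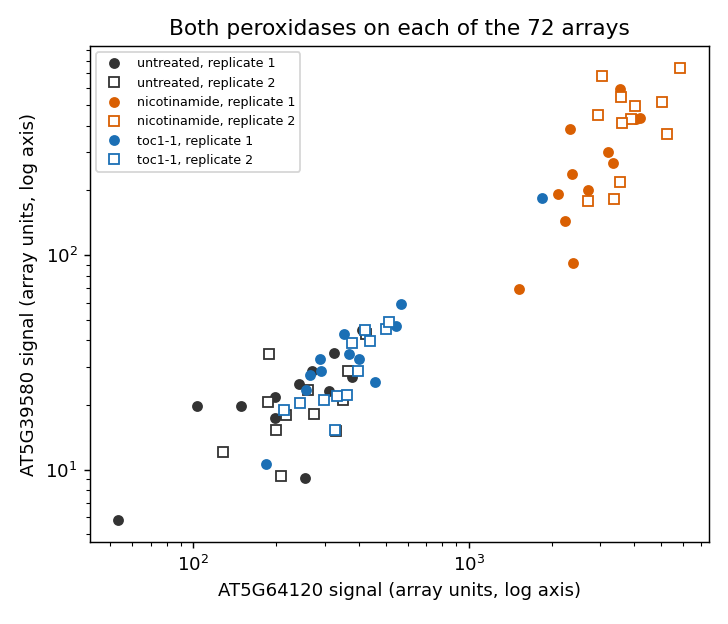
Signal of AT5G39580 (PRX62) against that of AT5G64120 (PRX71), both in array units on log axes, with 1 point for each of the 72 arrays. Nicotinamide arrays lie at the upper right, apart from all other arrays but the toc1-1 array of 77 h replicate 1 (1847 and 184). That array lies within their lower range, above 1 nicotinamide array for PRX71 and above 5 for PRX62.

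Whether both genes also differed in the clock mutant was tested with the toc1-1 minus untreated contrast, which uses the same untreated arrays as the contrast the genes were chosen on and is not fully independent of that choice. PRX71 was higher in toc1-1 by 0.67 ± 0.11 (95% interval 0.45 to 0.89, limma adjusted p = 4.62e-06), and PRX62 by 0.40 ± 0.13 (0.14 to 0.67, adjusted p = 0.0133). Of all tested probe sets 22.1% were called higher in toc1-1 and 19.6% lower. Without the 77 h replicate 1 array the differences were 0.58 ± 0.09 (adjusted p = 1.35e-06) and 0.33 ± 0.12 (adjusted p = 0.0322). In mean signal that is a ratio of 1.46 for PRX71 and 1.42 for PRX62.

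The toc1-1 differences were not even over time. Both toc1-1 arrays were above both untreated arrays at 9 of 12 times for PRX71 and at 7 of 12 for PRX62, and at 81 h both means were lower in toc1-1, by -0.08 and -0.25. For PRX71 the values past 77 h were near 0 at 81, 85 and 89 h (-0.08, 0.20 and 0.00), then 1.10 at 93 h, where the untreated signal was at its lowest. Within replicates 1 and 2 the PRX71 difference averaged 0.84 and 0.50, and the PRX62 difference 0.51 and 0.30. Without 77 h the replicate 1 averages were 0.60 and 0.33 over the other 11 times. The PRX71 call held with each replicate course left out (0.57 to 0.77). It also held with the time courses as a random block, with a larger error (0.67 ± 0.18, limma adjusted p = 0.00776). The PRX62 call was lost without toc1-1 replicate 1 (0.28, adjusted p = 0.233), without untreated replicate 1 (0.43, adjusted p = 0.0763) or 2 (0.38, adjusted p = 0.139), with a pseudocount of 64 (0.20, adjusted p = 0.0987) and with the time courses as a random block (0.40, adjusted p = 0.198).

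A 24 h rhythm was tested from the cosine and sine terms over the 12 times. On the log2(signal + 16) scale the amplitude of a dim gene also depends on the pseudocount, which touches PRX62 in untreated seedlings. Hours of peaks are the labelled times modulo 24. In untreated seedlings PRX71 was rhythmic, with an amplitude of 0.66 ± 0.11 and a peak at 11.3 ± 0.64 h (moderated F test, adjusted p = 3.87e-05), where 22.9% of tested probe sets were. Signals behind this were 103 and 199.6 at 49 h (replicates 1 and 2), 376 and 424 at 57 h, 149 and 209 at 77 h and 408 and 366 at 81 h. The daily maximum fell at 57 h and at 81 h in both replicates. Separate courses gave amplitudes of 0.77 and 0.54 with peaks at 11.3 h in both. GI, a clock component that served as reference, peaked at 10.6 h in the same seedlings. The PRX71 rhythm was not called without untreated replicate 1 (0.54, adjusted p = 0.0954).

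PRX62 in untreated seedlings had an amplitude of 0.28 ± 0.13 and a fitted peak at 9.37 ± 1.82 h, which did not pass the test (adjusted p = 0.301). Its highest signals, 44.8 at 81 h in replicate 1 and 42.7 at 57 h in replicate 2, fell on the times of the PRX71 maxima, but no time was the maximum of a cycle in both replicates. The amplitude was 0.49 with a pseudocount of 1 (adjusted p = 0.0730) and 0.12 with one of 64 (adjusted p = 0.694).

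Under nicotinamide PRX62 was called rhythmic and PRX71 was not, though the 2 genes were not tested against each other. PRX62 had an amplitude of 0.56 ± 0.13 and a peak at 16.1 ± 0.91 h (adjusted p = 0.00516), against 32.0% of tested probe sets called rhythmic there. Its signals were 69.0 and 178 at 49 h, 594 and 428 at 69 h, 91.9 and 181 at 77 h and 269 and 738 at 81 h. The lowest signal of each cycle fell at 49 h and 77 h in both replicates. The highest fell at 69 and 85 h in replicate 1 and at 65 and 81 h in replicate 2. These troughs lie more than 24 h apart and these maxima less than 24 h apart. At 49 and 77 h the position along the 82 other raised probe sets was also low, 0.58 and 0.83 in replicate 1 and 0.95 and 0.96 in replicate 2. Replicate courses of PRX62 gave amplitudes of 0.61 and 0.56 with peaks at 17.2 and 14.9 h, and a single 24 h cosine accounted for 27.3% and 38.7% of the variance of each course. The call was lost without the 3 arrays whose title ends in 2, which are nicotinamide 49 h replicate 1 and both of 65 h (0.46, adjusted p = 0.0620).

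PRX71 under nicotinamide had an amplitude of 0.13 ± 0.11 (adjusted p = 0.593), and its fitted peak at 14.2 ± 3.23 h had a wide error. The separate courses gave 0.14 and 0.16. Troughs of the nicotinamide course nevertheless fell at 49 h and 77 h in both replicates, as for PRX62. In a period search from 18 to 34 h, both replicate courses of PRX71 ended at the upper limit of 34 h, so no period was found for them, while those of PRX62 gave 23.3 and 24.6 h.

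The difference of rhythm between nicotinamide and untreated seedlings was tested on the cosine and sine terms themselves. It had a size of 0.57 ± 0.16 for PRX71 (adjusted p = 0.0160) and 0.67 ± 0.19 for PRX62 (adjusted p = 0.0202), where 25.9% of tested probe sets were called. For PRX71 the amplitude was lower under nicotinamide, 0.13 against 0.66. For PRX62 the amplitude was 0.56 against 0.28 and the fitted peak 16.1 h against 9.37 h, the untreated one resting on a rhythm that was not called. With a pseudocount of 1 these amplitudes were 0.60 against 0.49 and with one of 64 they were 0.46 against 0.12, and the difference of rhythm was called with both (0.84, adjusted p = 0.0175, and 0.50, adjusted p = 0.0219). GI, called rhythmic in both conditions, peaked at 17.6 h under nicotinamide. The PRX71 difference was lost without untreated replicate 1 (0.45, adjusted p = 0.326) or 2 (0.69, adjusted p = 0.0533) or nicotinamide replicate 1 (0.50, adjusted p = 0.0828), and that of PRX62 without either untreated replicate (0.61 and 0.73, adjusted p = 0.289 and 0.139) and in 3 other alternatives given in the closing section.

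**Figure D4:**
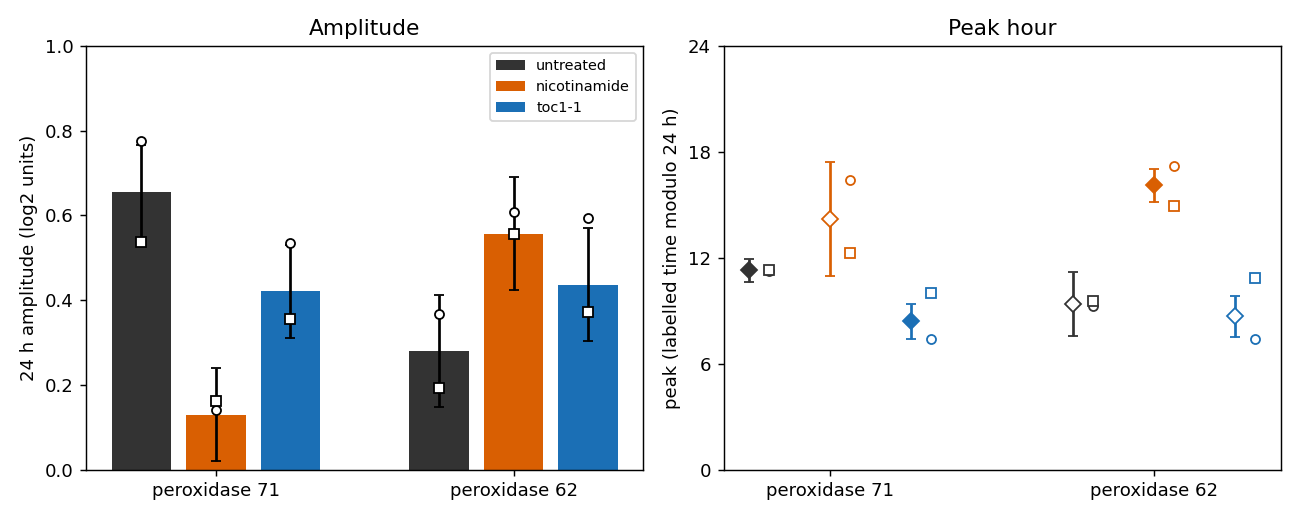
Left, amplitude of the 24 h cosine (log2 units) with bars for the fit over both replicates and error bars of 1 SE; right, hour of the peak (labelled time modulo 24 h) with diamonds for the same fit, filled where the rhythm was called. Circles and squares are replicates 1 and 2 fitted alone. PRX71 has its largest amplitude in untreated seedlings (0.66) and PRX62 under nicotinamide (0.56), where the peak lies at 16.1 h.

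In toc1-1 PRX71 was called rhythmic and PRX62 was not. PRX71 had an amplitude of 0.42 ± 0.11 and a peak at 8.41 ± 1.0 h (adjusted p = 0.0266), and PRX62 had 0.44 ± 0.13 and a peak at 8.69 ± 1.17 h (adjusted p = 0.0821, not called). Only 8.54% of tested probe sets were rhythmic there. Without the 77 h array the PRX71 amplitude was 0.34 ± 0.09 with a peak at 10.1 h (adjusted p = 0.0237) and the PRX62 amplitude 0.37 ± 0.12 with a peak at 10.0 h (adjusted p = 0.129). In replicate 2 alone the peaks were at 9.99 and 10.8 h. The test of the difference from untreated was passed by neither gene, with a size of 0.45 ± 0.16 for PRX71 (adjusted p = 0.176) and 0.17 ± 0.19 for PRX62 (adjusted p = 0.977), and by 7.20% of probe sets. Without the 77 h array the sizes were 0.35 ± 0.12 (adjusted p = 0.193) and 0.11 ± 0.17 (adjusted p = 0.999). The PRX71 call in toc1-1 was lost at a period of 26 h (0.32, adjusted p = 0.195), with a linear trend removed (0.39, adjusted p = 0.0712) and without either untreated or either toc1-1 replicate. The PRX62 rhythm in toc1-1 was called with a pseudocount of 1 (0.64, adjusted p = 0.0243) at a period of 22 h (0.47, adjusted p = 0.0457), and without nicotinamide replicate 1 or 2 (0.44, adjusted p = 0.00375 and 0.00381), which enter it only through the shared estimate of spread. In the period search the toc1-1 courses gave 20.5 and 22.0 h for PRX71 and 21.8 and 22.3 h for PRX62. Untreated courses gave 22.9 and 23.0 h for PRX71 and 21.8 and 23.7 h for PRX62. At a period of 22 h the PRX71 amplitude in toc1-1 was 0.48 (moderated F test, adjusted p = 0.00637). The period search and the 22 h fits include the 77 h array and are not given without it. That array was the second-cycle maximum of toc1-1 replicate 1 for both genes. A fixed 24 h cosine does not separate period from phase, so peak hours in toc1-1 and under nicotinamide are not read as phases alone. GI in toc1-1 peaked at 6.47 h.

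Levels of the second cycle (73 to 93 h) were set against those of the first (49 to 69 h). PRX71 under nicotinamide was higher in the second cycle by 0.48 ± 0.16 (95% interval 0.16 to 0.79), which missed the threshold (limma adjusted p = 0.0502). The value was 0.51 in replicate 1 and 0.44 in replicate 2. For comparison 3.16% of probe sets were called higher and 4.39% lower in the second cycle under nicotinamide. In untreated seedlings the PRX71 value was -0.19 ± 0.16 and in toc1-1 -0.23 ± 0.16 (adjusted p = 0.829 and 0.438), where in untreated seedlings 0.0147% of probe sets were called higher and 0.0220% lower, and in toc1-1 3.18% and 2.52%. The nicotinamide change exceeded the untreated one by 0.66 ± 0.22 (adjusted p = 0.104), with 0.535% of probe sets called higher and 0.491% lower. Without the toc1-1 array of 77 h the nicotinamide change (0.48, adjusted p = 0.0147) and its difference from untreated (0.66, adjusted p = 0.0406) became calls. That array enters these 2 values only through the shared estimate of spread. A lower second cycle in toc1-1, of which the array is itself a value, was also called without it (-0.42, adjusted p = 0.0458). With the array kept, the nicotinamide change was not called with quantile normalization (0.38, adjusted p = 0.133). Nor was it called without the 3 arrays whose title ends in 2 (0.37, adjusted p = 0.281). Other settings that made it a call are in the closing section. PRX62 had no call in any condition, with changes of -0.06 in untreated, 0.17 in nicotinamide and -0.06 in toc1-1 seedlings (± 0.19 each, lowest adjusted p = 0.542).

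The rest of the family moved in both directions under nicotinamide and mostly down in toc1-1. From a list of 73 class III loci, 53 other than PRX71 and PRX62 had a probe set and 26 of these passed the filter on dim signals. Under nicotinamide 10 of the 26 rose (38.5%, against 30.9% of all tested probe sets), 14 fell (53.8% against 48.4%) and 2 were not called. Both shares lay near those of all probe sets, and the median was -0.50 against -0.12. The rises were led by AT4G33420 (2.00 ± 0.06), AT5G64100 (1.43 ± 0.12), PRX52 (1.38 ± 0.10), AT5G64110 (0.76 ± 0.07) and Prx37 (0.67 ± 0.12). Outside the naming rule and chosen after its values were seen, AT1G14550 was too dim to be tested, with a signal of 3.64 ± 3.01 in untreated and 94.0 ± 168 in nicotinamide seedlings (SD, n = 24 each). The deepest falls were in AT4G26010 (-3.30 ± 0.15), AT5G17820 (-2.30 ± 0.13), AT4G30170 (-2.25 ± 0.13), PRXR1 (-1.81 ± 0.07) and AT2G18980 (-1.54 ± 0.08). PRXR1 went from a signal of 4858 ± 796 to 1411 ± 410 (SD, n = 24 each). Adjusted p for the genes named here was at most 1.75e-06 in the limma fit. With time courses as a random block 6 of the 26 rose and 14 fell. Without the filter on dim signals, which tests all 53, 13 rose and 25 fell. Shares of all probe sets under these settings are not given here, so these counts are not read further.

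In toc1-1, where PRX71 and PRX62 were higher, 2 of the 26 other peroxidases rose (7.69%, against 22.1% of all tested probe sets), 17 fell (65.4% against 19.6%) and 7 were not called, with a median of -0.31 against 0.02. The rises were Prx37 (0.52 ± 0.12, limma adjusted p = 3.81e-04) and AT4G08780 (0.22 ± 0.09, adjusted p = 0.0461). The falls included AT4G26010 (-2.67), AT5G17820 (-1.91), AT4G30170 (-1.67) and AT3G01190 (-1.41). A single rise was called without the 77 h array. With time courses as a random block 0 of the 26 rose and 12 fell. Without the filter on dim signals 1 of 53 rose and 28 fell. Shares of all probe sets under these settings are not given here. Rhythm was called for 16 of the 26 in untreated, 10 in nicotinamide and 9 in toc1-1 seedlings, where the shares of all tested probe sets were 22.9%, 32.0% and 8.54%.

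**Figure D5:**
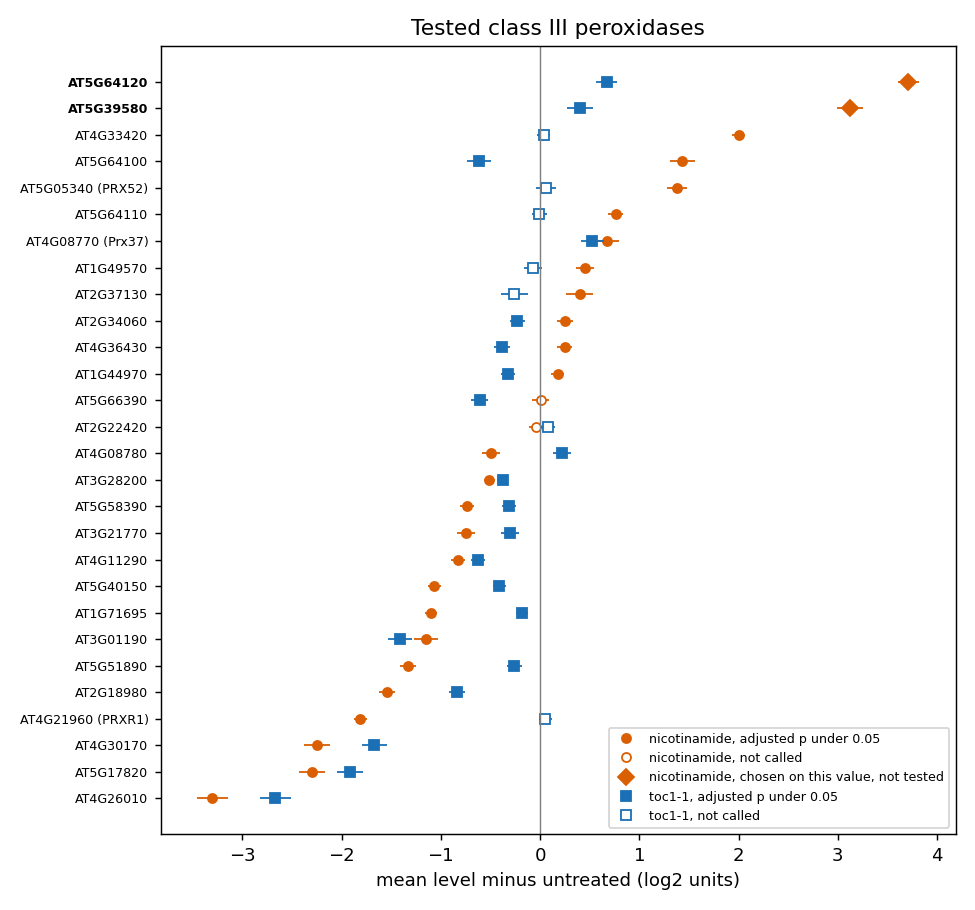
Mean level minus untreated (log2 units, with 1 SE) for the 28 tested class III peroxidases, ordered by the nicotinamide difference; filled symbols passed an adjusted p of 0.05 and diamonds mark the 2 genes chosen on this value, which were not tested. The 2 chosen genes lie at 3.71 and 3.12 by their selection, the other peroxidases run up to 2.00, and the lowest gene reaches -3.30 under nicotinamide and -2.67 in toc1-1.

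Of 16 root markers 8 had a probe set and 5 were tested. Of these AT4G26010, AT5G17820, AT4G30170 and AT3G01190 are themselves among the peroxidases that fell, so they say nothing beyond the family counts. PYK10, a root beta-glucosidase and the 1 tested root marker outside the family, was at -0.70 ± 0.07 under nicotinamide (adjusted p = 2.53e-11), where 48.4% of tested probe sets were lower, and at 0.00 ± 0.07 in toc1-1 (adjusted p = 0.995). The root markers left out by the filter had lower mean signals in both other conditions than in untreated seedlings. In untreated, nicotinamide and toc1-1 these were 70.0, 2.37 and 8.11 for AT1G30870, a listed peroxidase. They were 18.1, 4.93 and 5.03 for EXPA7 and 37.2, 5.62 and 8.16 for EXPA18. The summed signal of the 8 root markers ran from 1339 to 6185 in untreated, from 1136 to 2999 in nicotinamide and from 2148 to 5165 in toc1-1 arrays, in tissue labelled as aerial. Most of that sum was PYK10, with means of 3624, 2212 and 3570, so it says little about the other root markers. The summed signal of the 3 of 17 green shoot markers with a probe set, LHCB4.1, LHCB4.2 and LHCB4.3, ran from 4684 to 8623, from 3402 to 9392 and from 4162 to 7663. No summed marker level was at 0, and the part of other tissue in these results was not tested.

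PRX71 lies on chromosome 5 in a run of consecutive coding genes for class III peroxidases, AT5G64100, AT5G64110 and AT5G64120. All 3 were higher under nicotinamide, by 1.43, 0.76 and 3.71, but they differed in level and in rhythm. AT5G64100 had signals of 5.07 at the lowest, 144 at the median and 374 at the highest in untreated seedlings, 155, 425 and 1389 under nicotinamide and 27.9, 79.2 and 334 in toc1-1. Its highest nicotinamide array was the one of 81 h replicate 2, as for PRX71. In toc1-1 it was lower by -0.62 ± 0.12 (limma adjusted p = 1.08e-04), where PRX71 was higher, and its signal on the 77 h replicate 1 array was 124, inside its toc1-1 range. Its rhythm peaked at 10.5 h in untreated (amplitude 0.91, moderated F test adjusted p = 8.11e-07), 12.9 h in nicotinamide (0.49, adjusted p = 0.00880) and 11.5 h in toc1-1 seedlings (0.63, adjusted p = 0.00137). AT5G64110 was not called rhythmic in any condition (amplitudes 0.07, 0.16 and 0.12, lowest adjusted p = 0.195).

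Likeness over time was measured as Pearson's r over the 36 means of condition and time, each centred on its condition. It is a description with no test, since the means share arrays. AT5G64100 was the second closest gene to PRX71 (r = 0.81) among tested probe sets with a single named gene, and the closest without the 77 h array (0.88). The gene between them, AT5G64110, had an r of 0.27 with PRX71. The other genes closest to PRX71 were AT2G31390 (0.83), AT1G52200 (0.80), AT4G08780 (0.80), AT1G18390 (0.80), AT4G01870 (0.80), NANA (0.80) and AT2G30930 (0.79). Their mean levels under nicotinamide ran from -0.49 for AT4G08780 to 2.48 for AT4G01870. Over the 24 nicotinamide arrays the closest were AT5G48430 (0.93), AT3G46280 (0.91), AT4G12500 (0.91), AT2G44380 (0.90) and AT1G08315 (0.89).

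The genes closest to PRX62 over the 36 means were AT1G08940 (0.88), WRKY6 (0.85), a transcription factor, AT2G44370 (0.85), AT5G27920 (0.84), AT3G46280 (0.83), AT2G17740 (0.83), AT2G22880 (0.83) and AT1G18390 (0.82). All 8 had higher mean levels under nicotinamide, from 1.23 for AT5G27920 to 3.31 for AT3G46280. Over the 24 nicotinamide arrays the closest were AT1G52200 (0.95), AT2G17740 (0.91), AT2G22880 (0.89), AT1G18390 (0.89) and AT2G38870 (0.87). Here AT1G18390 was read by another of its probe sets than over the 36 means. Over the 36 means AT1G18390 was among the closest genes of both PRX71 and PRX62. Between PRX71 and PRX62 themselves r was 0.71 over the 36 means and 0.66 without the 77 h array. By it PRX62 ranked 26 among the neighbours of PRX71 and PRX71 ranked 34 among those of PRX62, or 93 and 72 without that array.

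Few genes of related pathways had a probe set with a named gene. Of 21 genes that make or remove hydrogen peroxide 2 were tested: SAPX, a chloroplast ascorbate peroxidase, rose by 0.88 ± 0.06 under nicotinamide (adjusted p = 1.54e-18) and TAPX, its thylakoid counterpart, fell by 1.49 on the log2 scale (adjusted p = 6.25e-25). In toc1-1 SAPX was at 0.12 (adjusted p = 0.0759) and TAPX at -0.23 (adjusted p = 0.00213). Of 20 lignin and laccase genes 2 were tested: CCR2, a cinnamoyl-CoA reductase, rose by 0.69 ± 0.09 (adjusted p = 6.84e-09) and HCT, an acyltransferase of the same pathway, stood at 0.16 (adjusted p = 0.0511). In toc1-1 HCT fell (-0.33 ± 0.07, adjusted p = 3.12e-04) and CCR2 stood at 0.17 (adjusted p = 0.140). Of 14 defence genes 3 were tested: AT1G51890 rose both under nicotinamide (0.36 ± 0.10, adjusted p = 0.00150) and in the mutant (0.47, adjusted p = 3.11e-04), the defensin PDF1.2 fell under nicotinamide (-2.25 ± 0.29, adjusted p = 2.75e-09), and CHI stood at -0.02 (adjusted p = 0.913).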

How the data were processed

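Intensity was deposited in linear units. Per the submitters' processing notes the authors used MAS5 and GCOS (versions not stated). Their 2% trimmed mean of 100 per array was checked on the values. The number of arrays limits the precision. After removal of 64 controls from 22810 probe sets, the 60% with the highest mean log2(signal + 16) were tested (13647). The pseudocount understates changes of dim transcripts. limma 3.58.1 (R 4.3.3) fitted 36 means, 1 per condition and time, with trended moderated variances on 36 residual plus 6.74 prior degrees of freedom, and p-values were adjusted by Benjamini-Hochberg over all tested probe sets with a threshold of 0.05. Amplitude and peak errors are delta-method standard errors. A difference of rhythm is the length of the vector of cosine and sine differences. Quantile normalization moved the median nicotinamide change of all probe sets from -0.12 to 0.01. The scripts were tested on simulated data.

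Genes were named from the supplied annotation, in which 13513 probe sets had 1 gene, 503 several and 8794 none listed, and 13436 were matched to a locus of the reference annotation. The rule for named genes took the 2 members; of the other class III peroxidases the 5 highest and 5 lowest called under nicotinamide and up to 4 called per direction in toc1-1; up to 4 tested members of each other list by adjusted p; and the 8 genes closest over 36 means and 5 closest over nicotinamide arrays for each member. AT5G64110 and AT5G64100 are also described as neighbours of PRX71, and GI was added as a clock reference. The members and lists were chosen with earlier results of these data known. Settings tried besides were pseudocounts of 1 and 64, quantile normalization, no filter, a replicate block, time courses as a random block, periods of 22 and 26 h, a linear trend, and arrays or courses left out. Sequences and promoters were not used here.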

Additional observations from a re-analysis of the deposited data

Results flagged for a closer look

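For each gene the 24 h rhythm differed between nicotinamide and untreated seedlings by the test of the difference itself, which set these results out for a closer look. The size of the difference was 0.57 ± 0.16 for PRX71 (limma moderated F test, adjusted p = 0.0160) and 0.67 ± 0.19 for PRX62 (adjusted p = 0.0202). PRX71 had the lower amplitude under nicotinamide in both replicates (0.14 against 0.77 and 0.16 against 0.54). PRX62 had the higher amplitude there in both (0.61 against 0.37 and 0.56 against 0.19), with later fitted peaks (17.2 against 9.27 h and 14.9 against 9.57 h). The untreated PRX62 peaks rest on a rhythm that was not called (moderated F test, adjusted p = 0.301). Neither difference of rhythm was called with either untreated course left out. The PRX62 troughs under nicotinamide, at 49 and 77 h in both replicates, lay more than 24 h apart. The untreated PRX62 amplitude depends on the pseudocount, and with a pseudocount of 1 the fit over both replicates gave 0.60 under nicotinamide against 0.49. The rhythms of these 2 genes were not tested against each other.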

How the results depend on the processing

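Of 478 values under alternatives, 417 kept their direction and their side of the threshold or, for untested values and counts, stayed within the set limits. Another 21 lost a call, 15 gained one, 15 moved and 10 changed sign. The nicotinamide difference of PRX62 depended on the pseudocount, with 3.84 at a pseudocount of 1 and 2.14 at 64, as its construction implies for low signals. At 64 the toc1-1 difference of PRX62 was 0.20 and lost its call, and the second-cycle change of PRX71 under nicotinamide (0.47) became a call. At 1 the toc1-1 rhythm of PRX62 (0.64) was called. With time courses as a random block the PRX62 difference in toc1-1 (0.40) was lost, while the PRX62 rhythm in toc1-1 (0.44), the PRX71 cycle change under nicotinamide (0.48) and its difference from untreated (0.66) were called. Without the 3 arrays of title ending 2 the PRX62 rhythm under nicotinamide fell short (0.46). The rhythm difference of PRX62 was lost without nicotinamide 77 h replicate 1 and 85 h replicate 2 (0.60, adjusted p = 0.0512), at a period of 22 h (0.59, adjusted p = 0.0710) and with a trend removed (0.57, adjusted p = 0.0800). The PRX71 rhythm in toc1-1 was lost at 26 h (0.32) and with a trend removed (0.39), and that of PRX62 was called at 22 h (0.47). Causes of these changes were not tested.

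After seeing the data, 2 alternatives were added. Without the 77 h replicate 1 array of toc1-1, PRX71 cycle changes were called under nicotinamide (0.48), in toc1-1 (-0.42) and as a difference from untreated (0.66). Without the nicotinamide array of that time and replicate as well they were 0.52, -0.42 and 0.71, again called.

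The difference of the cycle change between toc1-1 and untreated seedlings was near 0 for both genes and changed sign. For PRX62, 0.00 in the main fit, it was -0.024 with quantile normalization, -0.0067 without the 3 arrays and -0.15 under both added alternatives. For PRX71, -0.05 in the main fit, it was 0.039 without the 3 arrays.

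Leaving out 1 replicate course, with the spread pooled so that a lone course is assumed to vary like the others, the toc1-1 difference ran from 0.57 to 0.77 for PRX71 and from 0.28 to 0.53 for PRX62. Rhythm amplitudes of PRX71 ran from 0.54 to 0.77 in untreated and from 0.35 to 0.54 in toc1-1 seedlings, and its rhythm difference under nicotinamide from 0.45 to 0.69. For PRX62 the toc1-1 amplitude ran from 0.37 to 0.59 and the rhythm difference from 0.59 to 0.78. The toc1-1 minus untreated cycle change ran from -0.15 to 0.057 for PRX71 and from -0.092 to 0.095 for PRX62, and the toc1-1 cycle change of PRX62 from -0.15 to 0.036. Of the other class III peroxidases, 5 to 11 rose and 12 to 16 fell under nicotinamide, and 0 to 2 rose and 10 to 18 fell in toc1-1.

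Other counts of the family moved as follows. Under nicotinamide 6 rose with the random block and 25 fell with no filter, which tests more genes. In toc1-1, 1 rose with a pseudocount of 1, with no filter and under both added alternatives. With the random block 0 rose and 12 fell, and 28 fell with no filter. Shares of all probe sets under the alternatives and with courses left out are not given here.

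Replicate numbers are shared by all conditions. Deviations of same-numbered arrays correlated above 0.1 at 10 of 12 times between untreated and nicotinamide (-0.04 to 0.35, median 0.20). For each pair with toc1-1 they did so at 5 of 12 times (medians 0.08 with untreated and 0.05 with nicotinamide). The main fit did not pair samples by number in any condition. For untreated and nicotinamide the correlations were mostly positive, and whether their same-numbered courses share a batch was not tested. With the replicate number as a block the PRX71 cycle change under nicotinamide (0.48, adjusted p = 0.0293) was called, and no other call on either gene changed.

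Having 2 arrays per time and condition limits what can be shown at single times. PRX62 in untreated seedlings lay near the dim end of the arrays, and its amplitude there was 0.49, 0.28 and 0.12 at pseudocounts of 1, 16 and 64.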
